A study of Mus musculus with 4 samples.

Results

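Olfactory receptor genes are among the largest gene families of the mouse, and many of them lie in long clusters with few other genes. DNA methylation was measured over 3 such clusters by MeDIP-seq. The method enriches sonicated DNA that carries 5-methylcytosine with an antibody and sequences it, and the untreated DNA (input) is sequenced as the background. The clusters were chosen by position in the mm10 build: chr2:85200001-90400000 (chromosome 2, proximal), chr2:111000001-112300000 (chromosome 2, distal) and chr7:102400001-108700000. They held 6332 of the 1048575 windows of 100 bp in the deposited table, with 1888 windows in the proximal and 518 in the distal cluster of chromosome 2 and 3926 in the cluster of chromosome 7. RefSeq annotated 569 receptor genes there, of which 444 were protein-coding and 125 were pseudogenes.

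The cells were natural killer T (NKT) thymocytes of C57BL/6 mice, freshly sorted by binding of a CD1 tetramer. NKT cells are T cells that recognise lipids and depend on the transcription factor PLZF, whose acetylation the series concerns. There were 4 libraries, 1 in each group: PLZFon MeDIP, WT MeDIP, PLZFon input and WT input. The labels describe neither the PLZFon allele nor the age or number of the mice, and their antibody entry is at odds with the sample titles: no antibody is entered for PLZFon MeDIP, and the one against 5-methylcytosine is entered for WT input. The titles were followed. DNA libraries hold no expression, so the cell type could not be checked against its markers.

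Library totals were 10635946 reads (PLZFon MeDIP), 15143451 (WT MeDIP), 50365402 (PLZFon input) and 60689327 (WT input), and the listed windows of the clusters held 16205 (PLZFon MeDIP), 24328 (WT MeDIP), 17004 (PLZFon input) and 20495 (WT input) of these reads. With 1 library per group, every difference is one between libraries and not between genotypes, and no p-value was computed. All intervals are exact (Clopper-Pearson) 95% intervals that cover counting error only. A window was in the table only if it held at least 1 CpG and if its MeDIP reads, both libraries together, came to 10 or more, so the share of 100 bp positions that were listed is itself a readout of pull-down. It also moves with CpG number and with how many reads can be placed, and an unlisted position is not a position without reads.

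Olfactory receptors are G protein-coupled receptors, and each olfactory neuron uses 1 allele of 1 receptor gene. Their coding sequence lies in a single exon, and most other tissues do not use the genes. Mammalian receptors fall into class I, which resembles the receptors of fish, and class II, which makes up most of the family. Mammalian DNA is methylated mostly at CpG, and the starts of genes that all cells use often lie in CpG-rich stretches that stay unmethylated.

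Receptor class was taken from the MOR family numbers among the gene synonyms (family 42 is the last of class I). Class I had 147 genes, all on chromosome 7. Class II had 367 genes, with 259 in the proximal and 42 in the distal cluster of chromosome 2 and 66 on chromosome 7. The other 55 genes had no family number or conflicting ones.

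Few CpGs lay at the receptor starts, as their sequences show. The 4 stretches that follow are from RefSeq (GRCm38.p6, the same primary assembly as mm10), written 5′ to 3′ along the gene with each CpG in capitals. The 3 receptors run from 250 bp before to 50 bp after the annotated start, which in all 3 is the start codon. They were chosen as receptors with strong pull-down in the body (Olfr691) or beside it (Olfr1055) and as a receptor with listed windows at its start (Olfr688). Ilk, the gene of integrin-linked kinase, which most cells use, lies in the same cluster of chromosome 7, and its 250 bp before the start are given for contrast.
Olfr691, chr7:105337665-105337964, minus strand: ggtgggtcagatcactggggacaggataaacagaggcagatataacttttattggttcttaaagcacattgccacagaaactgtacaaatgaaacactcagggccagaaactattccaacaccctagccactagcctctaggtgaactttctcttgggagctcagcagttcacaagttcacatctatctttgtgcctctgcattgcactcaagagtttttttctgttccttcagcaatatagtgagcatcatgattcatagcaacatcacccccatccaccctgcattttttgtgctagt
Olfr1055, chr2:86347715-86348014, minus strand: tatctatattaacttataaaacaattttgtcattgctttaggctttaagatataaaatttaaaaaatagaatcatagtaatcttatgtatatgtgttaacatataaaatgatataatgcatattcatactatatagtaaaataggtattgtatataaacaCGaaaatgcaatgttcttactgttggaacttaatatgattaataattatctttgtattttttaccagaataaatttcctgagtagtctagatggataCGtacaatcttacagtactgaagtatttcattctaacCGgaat
Olfr688, chr7:105287845-105288144, plus strand: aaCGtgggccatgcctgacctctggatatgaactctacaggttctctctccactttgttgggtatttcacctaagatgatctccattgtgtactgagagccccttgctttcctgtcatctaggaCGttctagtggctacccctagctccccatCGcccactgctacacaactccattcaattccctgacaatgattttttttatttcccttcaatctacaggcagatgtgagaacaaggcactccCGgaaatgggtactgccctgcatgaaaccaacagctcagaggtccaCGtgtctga
Ilk, chr7:105736340-105736589, plus strand: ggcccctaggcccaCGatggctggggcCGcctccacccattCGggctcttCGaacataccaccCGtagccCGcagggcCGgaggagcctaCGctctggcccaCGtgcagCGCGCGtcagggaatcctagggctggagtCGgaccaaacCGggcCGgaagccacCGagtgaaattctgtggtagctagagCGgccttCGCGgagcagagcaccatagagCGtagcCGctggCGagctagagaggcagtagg

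The stretch of Olfr691 held 0 CpGs and that of Olfr1055 held 3, and neither had a listed window. The 5 CpGs of Olfr688 fell in 4 listed windows with 3 to 5 MeDIP reads in PLZFon and 7 to 11 in WT. Ilk held 22 CpGs in its 250 bp and no listed window, so a stretch can be unlisted with few CpGs or with many.

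Over the 364 receptors with a start sequence, the mean was 1.1 CpGs per 300 bp, and 132 of them (36.3%) had none. The mean GC content was 34%, and 268 sequences (73.6%) had ATG at the annotated start, so for most receptors the annotation begins at the coding sequence and not at a promoter. Class I and class II starts were alike in CpG number, with means of 1.18 (102 genes) and 1.04 (253 genes). Their mean GC content was 37.3% in class I and 32.5% in class II. A listed window overlapped 6 class I starts (5.88%) and 4 class II starts (1.58%). The 8486 genes of chromosomes 1 to 7 that are no receptors had a mean of 10.8 CpGs and a mean GC content of 52.4%. Of these, 462 (5.44%) had ATG at the annotated start.

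Few receptor starts were listed. A listed window overlapped 11 of the 364 receptor starts (3.02%), against 1556 of the 8486 other starts (18.3%). Of the other starts, those of protein-coding genes had 10.9% (468 of 4307). With 1 CpG the share was 2 of 130 receptor starts (1.54%) against 7% of the other starts, with 2 CpGs 3 of 62 (4.84%) against 12.4%, and with 3 CpGs 2 of 22 (9.09%) against 22.9%. With 4 CpGs it was 1 of 13 receptor starts (7.69%) against 35.8%, and with 5 CpGs 1 of 2 against 39.3%, so these shares rest on few receptors. The share of other starts was 42.1% with 6 CpGs and 1.26% above 20 CpGs. Starts with the same CpG number were unlike in other ways. With 1 to 6 CpGs, 71% of receptor starts and 7.38% of other starts had ATG at the annotated start. Mean GC content was 34.5% in these receptor starts and 46.1% in the other starts. The part of these differences in the shares listed was not tested. Olfr575 (3 windows) and Olfr638 (2 windows), both of class I, were among the 11 receptors, and these windows sum to 27 PLZFon and 18 WT counts in Olfr575 and to 15 PLZFon and 34 WT counts in Olfr638.

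Pull-down in the receptor genes lay in the coding bodies and was concentrated in class I. Of the 569 genes, 169 (29.7%) had a listed window within the gene and 400 had none. A listed window was found in 99 of 147 class I genes (67.3%) and in 64 of 367 class II genes (17.4%). Of the 55 genes without a class, 6 had one.

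Gene length differs between annotations that hold the coding exon alone and those that hold introns, so compact genes of 850 to 1100 bp were compared. In the 116 compact class I genes 28.6% of positions were listed (95% interval 26 to 31.2), and in the 299 compact class II genes 4.32% (3.64 to 5.09). Neighbouring windows share reads, so these intervals are too narrow. Class II genes had 4.81% of positions listed in the cluster of chromosome 7 (55 genes), where class I lies, and 4.8% in the proximal cluster of chromosome 2 (211 genes). The classes were not compared by position within the cluster of chromosome 7, so the part of region in the class difference was not tested. In the distal cluster of chromosome 2, 1 of 337 positions was listed over 33 compact class II genes (0.297%).

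Pseudogenes, which no longer encode a full receptor, also had listed windows. Among compact class I genes 24.2% of positions were listed in 15 pseudogenes, against 29.2% in 101 protein-coding genes. A listed window was found in 9 of these 15 pseudogenes (60%) and in 70 of these 101 protein-coding genes (69.3%). Over class I genes of any length, 12 of 25 pseudogenes (48%) and 87 of 122 protein-coding genes (71.3%) had one. Among compact class II genes 3.48% of positions were listed in 39 pseudogenes, against 4.44% in 260 protein-coding genes. Within a class the pseudogenes were lower in these measures, but other measures went the other way. Over genes of any length, positions listed were 21.5% in pseudogenes against 19.5% in protein-coding genes of class I, and 3.66% against 3.25% in class II. In class II of any length, 18.2% of pseudogenes and 17.3% of protein-coding genes had a listed window. No test of the difference was made.

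Receptor genes outside the clusters, which were not split by class, had 14.5% of positions listed over 145 compact genes. This lay above the 4.32% of compact class II genes in the clusters and below the 28.6% of compact class I genes. Protein-coding genes of the same length that are no receptors had 6% (252 genes), and all 8984 protein-coding genes that are no receptors had 11.6%.

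**Figure D1:**
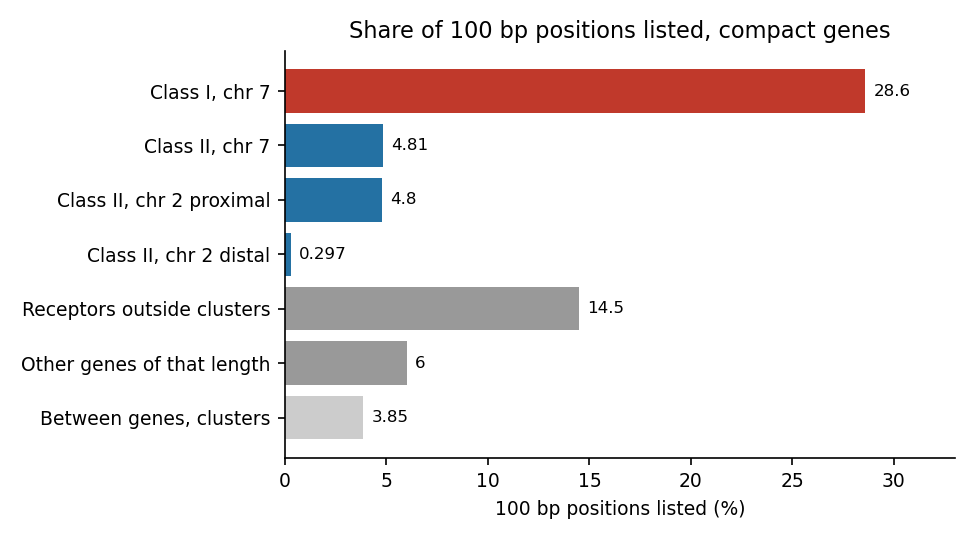
Horizontal bars give the percentage of 100 bp positions listed in compact genes (850 to 1100 bp) by class and cluster, in receptors outside the clusters, in other protein-coding genes of that length, and between genes of the clusters. Class I stands at 28.6%, and every class II bar of the clusters lies below 5%. Receptors outside the clusters, not split by class, stand at 14.5%.

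Along the gene, the listed windows began after the start and ended near the end of the coding sequence. This was seen in the compact genes whose strand is known, 87 of class I and 217 of class II. In class I 1.9% of positions were listed from 2000 to 100 bp before the start, 29.5% from 0 to 900 bp after it and 1.78% from 1100 to 3000 bp after it. The highest share was 41 of 87 genes (47.1%), at 400 bp. In class II the same stretches had 0.392%, 4.61% and 1.43%, with the highest share of 8.29% (18 of 217 genes) at 700 bp.

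**Figure D2:**
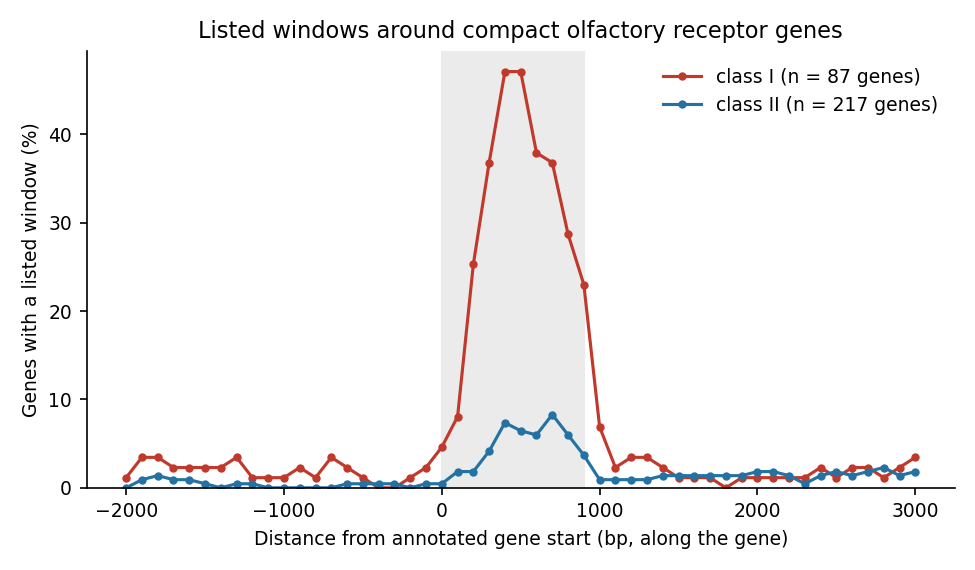
The percentage of genes with a listed window (vertical axis) is plotted against distance from the annotated gene start in bp along the gene, for 87 class I and 217 class II compact genes, with 0 to 900 bp shaded. Both lines rise inside the shaded stretch, to 47.1% in class I and 8.29% in class II, and stay below 4% before the start.

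In the listed windows of the bodies, the intervals of MeDIP over input overlapped between class I and class II. Depth-scaled MeDIP reads over input were 4.41 (3.98 to 4.88) in PLZFon and 4.45 (4.06 to 4.87) in WT for class I bodies. For class II bodies they were 4.46 (3.76 to 5.3) in PLZFon and 4.17 (3.6 to 4.82) in WT. The listed windows held 2.12 CpGs on average in class I and 1.95 in class II. Listing requires MeDIP reads, so listed windows of any kind are selected for pull-down, and the number of CpGs in unlisted positions was not analysed here.

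In 6 receptors at least 80% of the positions of the body were listed, a threshold chosen after the values were seen. Olfr1009, of class II on chromosome 2, had 9 of 10 positions listed, with 20.5 MeDIP reads in PLZFon and 19 in WT beside input reads of 20 in PLZFon and 26.5 in WT. Its ratio of PLZFon over WT came to 1.54 (0.782 to 3.03), which includes equality. The other 5 lay on chromosome 7: Olfr545, Olfr599 and Olfr638 of class I, and Olfr592 and Olfr605, whose family numbers conflict. Olfr545 had the most reads of these genes, 50.5 in PLZFon and 55 in WT beside input reads of 34.2 in PLZFon and 39 in WT, with a ratio of 1.31 (0.874 to 1.95). MeDIP over input of the 6 genes was 4.85 to 12.6 in PLZFon and 2.87 to 8.51 in WT, and none of their 6 ratio intervals excluded equality. The 12.6 was that of Olfr592, which had 9.75 input reads in PLZFon and 27.2 in WT, the lowest input ratio of the measured receptor loci (0.431). In the other 5 genes the highest value in PLZFon was 7.34.

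Receptor genes were then set against the sequence between genes, which makes up most of the clusters. The share of positions listed was 7.26% in receptor genes, 9.44% in other genes and 3.85% between genes, and 4.95% over the clusters against 9.47% in the rest of the table. The clusters differed in this. On chromosome 7 receptor genes had 13.5% of positions listed against 4.37% between genes. In the proximal cluster of chromosome 2 these shares were 3.35% and 3.31%, and in the distal cluster 2.11% and 4.04%. Over annotated receptor genes of any length, the excess lay on chromosome 7, where class I lies. Compact class II genes alone had 4.8% of positions listed in the proximal cluster, above the 3.31% between genes there. In the distal cluster they had 0.297%, below the 4.04% between genes. Counted with 1000 bp on each side, receptor genes had 4.02% of positions listed over the clusters, against 4.2% between genes.

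The listed windows between genes held more CpGs and were pulled down more strongly. The CpG factor, which equalled the number of CpGs starting in the window in 2642 of 2642 windows checked, averaged 2.14 in receptor genes, 2.34 in other genes, 2.57 between genes and 2.34 in the rest of the table. A factor of at least 3 was found in 29.6% of receptor windows (26.3 to 33.1) and in 39.8% of windows between genes (38.2 to 41.4). A factor of 6 or more was found in 1.1% of receptor windows, 7.11% of windows between genes and 3.5% of windows in the rest of the table.

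MeDIP over input was 4.31 (4.01 to 4.62) in PLZFon and 4.35 (4.09 to 4.62) in WT for receptor genes. Between genes it was 4.77 (4.64 to 4.9) in PLZFon and 4.93 (4.81 to 5.04) in WT, above receptor genes in both. In other genes it was 4.03 in PLZFon and 4.51 in WT. For the rest of the windows in the table it was 4.22 in PLZFon and 4.44 in WT. With at least 20 MeDIP reads per window, receptor genes had 6.44 in PLZFon and 6.49 in WT. Under that minimum, other genes had 5.71 in PLZFon and 6.49 in WT, and sequence between genes 6.41 and 6.78. Over all listed windows the inputs differed in the same places. Both inputs together had 20 reads per window in receptor genes, 24.5 between genes and 21.6 in the rest of the table. Only uniquely placed reads were kept, per the file headers, and reads of near-identical receptor copies are then uncertain. The part of this in the result was not tested.

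At each CpG number the intervals of receptor genes and of sequence between genes overlapped. With a CpG factor of 1, MeDIP over input was 3.94 in PLZFon and 3.53 in WT for receptor genes, and 3.7 in PLZFon and 3.73 in WT between genes. With a factor of 4, receptor genes had 5.94 in PLZFon and 6.07 in WT, their highest value at any CpG factor. With 6 or more, the 8 receptor windows had 4.48 in PLZFon (2.36 to 8.45) and 5.15 in WT (2.81 to 9.59), against 7.79 in PLZFon and 8.35 in WT over 271 windows between genes. The intervals of these 8 windows reach the values between genes, so a difference was not detectable at this depth.

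**Figure D3:**
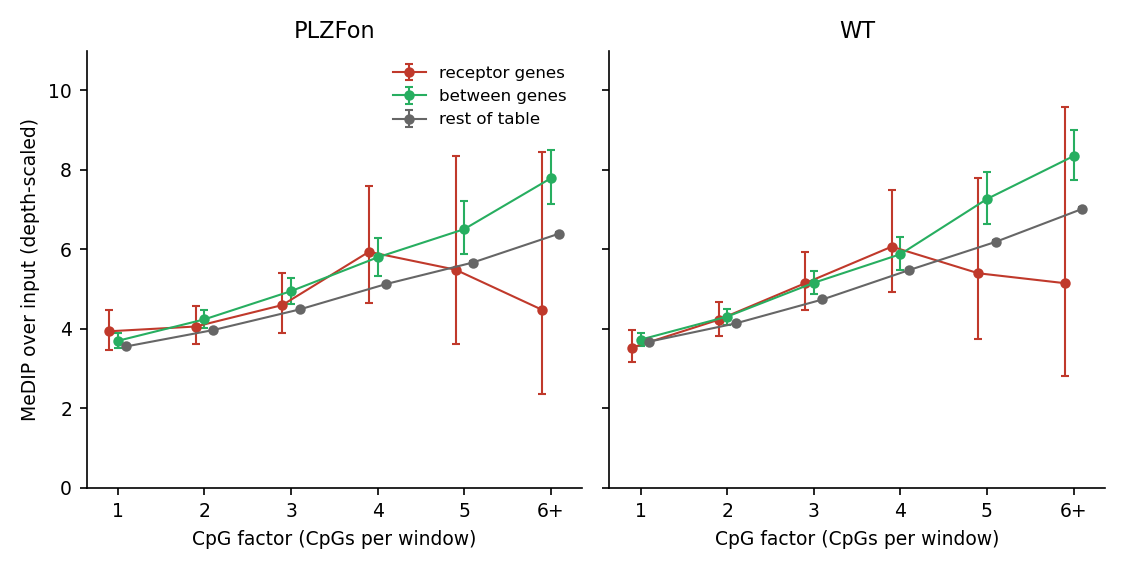
Depth-scaled MeDIP over input (vertical axis, from 0) is plotted against the CpG factor in CpGs per window, in PLZFon (left) and WT (right), for receptor genes, between genes and the rest of the table. Bars are exact 95% intervals of counting error, and the receptor intervals overlap those between genes at each CpG factor plotted.

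The 5 receptor windows with the most CpGs held 7 to 9 of them, and only some were strongly pulled down. The window in Olfr1280, in the distal cluster of chromosome 2 (chr2:111351301-111351400, 9 CpGs), had 4 MeDIP reads in PLZFon and 9 in WT beside input reads of 13 in PLZFon and 17 in WT. The window in Olfr606 (chr7:103451701-103451800, 7 CpGs) had 20 in PLZFon and 23 in WT beside input reads of 13 in PLZFon and 8 in WT. The windows in the pseudogenes Olfr268-ps1, Olfr548-ps1 and Olfr580-ps1 had 7 CpGs each, with 6 to 20 MeDIP reads in PLZFon and 8 to 16 in WT. Those in Olfr580-ps1 and Olfr606 had the most reads, and the annotated Olfr1280 is 60182 bp long and spans other receptors.

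Single receptors were measured as the gene with 1000 bp on each side, and 77 of 569 had at least 20 MeDIP reads: 51 of class I, 22 of class II and 4 without a class. These 77 passed through high pull-down and do not stand for all receptors. A read is counted in about 4 neighbouring windows, so window counts were divided by 4 to give reads, which need not be whole. The 77 loci held 20.8 to 231 MeDIP reads with a median of 33.5. In PLZFon the median MeDIP over input was 5.59 (range 2.2 to 12.6), and in WT 4.74 (range 1.77 to 14.2).

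The strongest pull-down in WT was in Olfr48, a class II receptor of chromosome 2 (chr2:89844066-89844971). It had 22.5 reads in PLZFon and 38 in WT beside input reads of 9.75 in PLZFon and 10.8 in WT, which gave 10.9 in PLZFon (4.95 to 26) and 14.2 in WT (7.06 to 31). Its 6 listed windows lay in the body, with 4 to 25 counts in PLZFon and 9 to 39 in WT. Olfr691, of class I, whose start without a CpG is printed above, had 7 listed windows in its body with a mean CpG factor of 3.57. It had 21 reads in PLZFon and 34.8 in WT beside input reads of 16.2 in PLZFon and 11.5 in WT, which gave 6.12 in PLZFon (3.05 to 12.5) and 12.1 in WT (6.07 to 26).

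Olfr1055, the third in WT at 10.2 in PLZFon and 11.6 in WT, was the receptor locus with the most reads, 90.8 in PLZFon and 140 in WT beside input reads of 42 in PLZFon and 48.5 in WT. Most of these lay outside the gene, in the flank beyond its 3′ end: 9 of its 12 listed windows were in the flank, up to 62 counts in PLZFon and 109 in WT, while the 3 in the body reached 31 in PLZFon and 51 in WT. By MeDIP over input in WT, Olfr1059-ps1 came next, at 7.63 in PLZFon and 9.54 in WT, from 4 listed windows that all lay in its flanks and 24.5 MeDIP reads in all. Olfr543 had 7.86 in PLZFon and 9.23 in WT, from 9 listed windows in its body. The lowest in WT were Olfr607, Olfr687, Olfr1280, Olfr631 and Olfr557, at 2.21 to 5.68 in PLZFon and 1.77 to 2.35 in WT. Of these 5, all but Olfr557 are annotated over 3904 to 60182 bp.

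The next comparison was PLZFon against WT. Receptor genes had 1495 MeDIP reads in PLZFon and 2146 in WT, a depth-scaled ratio of 0.992 (0.928 to 1.06) with an input ratio of 1, so the interval includes equality. Between genes the ratio was 0.958 (0.935 to 0.982), and in other genes 0.909 (0.874 to 0.946). The rest of the table had 0.964 (0.963 to 0.966), so the whole PLZFon library was slightly lower over listed windows, and receptor genes and the sequence between them both had intervals that include this value. Scaled by TMM factors, edgeR's trimmed mean over all listed windows in place of the library totals, the ratio between genes was 0.993, with an interval that includes equality.

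By cluster, the ratio was 0.967 (0.934 to 1) in the proximal cluster of chromosome 2, 0.878 (0.818 to 0.942) in the distal cluster and 0.948 (0.924 to 0.973) on chromosome 7. On chromosome 7 the interval includes equality under TMM scaling, at 0.983. The distal cluster was the lowest, and its interval lay below the value of the rest of the table. Its receptor genes had 43.5 reads in PLZFon and 63.2 in WT, a ratio of 0.979 (0.65 to 1.46). Its other genes had 190 in PLZFon and 385 in WT, a ratio of 0.701 (0.586 to 0.837), with an input ratio of 1.01 (0.865 to 1.17).

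Among these other genes, Lpcat4, a lysophospholipid acyltransferase, and Nutm1 lie at the edge of the distal cluster, and both were chosen after their values were seen. Lpcat4 had 56.8 reads in PLZFon and 122 in WT beside input reads of 97.5 in PLZFon and 124 in WT, a ratio of 0.665 (0.476 to 0.919). Nutm1 had 35.2 reads in PLZFon and 86.2 in WT beside input reads of 80.2 in PLZFon and 99.8 in WT, a ratio of 0.582 (0.382 to 0.87). Their loci are neighbours and can share windows. The bin of 100 kb that holds them, with 0 receptor genes, had a ratio of 0.741 (0.617 to 0.888). Between genes of the distal cluster the ratio was 0.916 (0.846 to 0.992).

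For class I and for class II bodies the interval of the ratio includes equality. Class I bodies had 728 reads in PLZFon and 1005 in WT, a ratio of 1.03 (0.936 to 1.14) with an input ratio of 1.04. Class II bodies had 264 in PLZFon and 383 in WT, a ratio of 0.982 (0.837 to 1.15) with an input ratio of 0.918.

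Over the 77 measured loci the median log2 ratio was -0.02, with a range of -1.08 to 0.91. Over all 14285 gene loci of the table with at least 20 MeDIP reads the median was -0.06. The ratio was below 1 in 39 of the 77. The 2-fold rule asked for at least 20 reads, for a difference of 2-fold or more either way and for an interval without equality. Among receptors 0 passed as higher and 1 as lower in PLZFon, against 0.182% higher and 0.448% lower over the 14285 loci. The interval lay above equality in 0 and below it in 1 of the 77, against 1.21% and 3.68% over the 14285 loci.

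**Figure D4:**
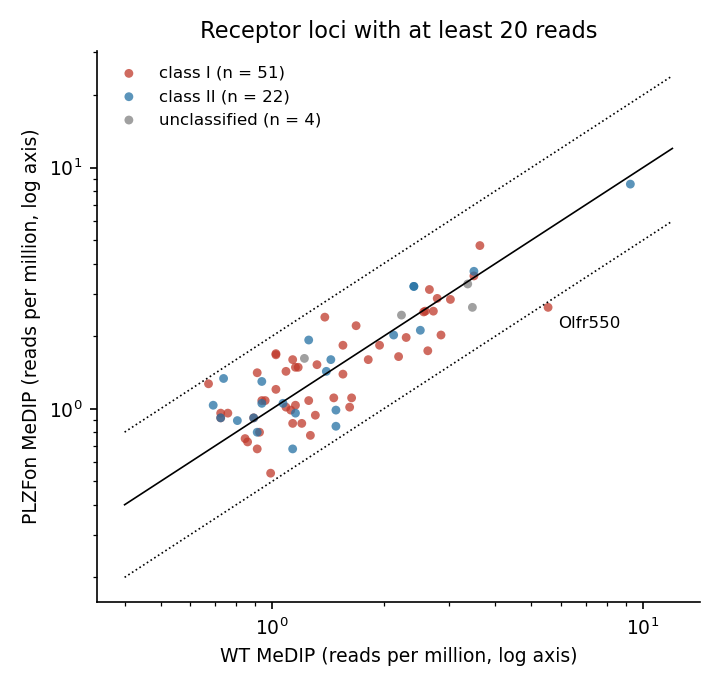
MeDIP reads scaled to the library total in PLZFon (vertical log axis) are plotted against those in WT (horizontal log axis) for 77 receptor loci with at least 20 reads, coloured by class. The solid line marks equality and the dotted lines a 2-fold difference, and Olfr550 is the locus below the lower dotted line.

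The locus lower in PLZFon was Olfr550, of class I near the start of the chromosome 7 cluster (chr7:102571431-102579662, plus strand). It had 28 MeDIP reads in PLZFon and 84 in WT, with 43.2 input reads in each, and a ratio of 0.475 (0.298 to 0.736). MeDIP over input was 3.07 (1.84 to 5.05) in PLZFon and 7.78 (5.33 to 11.5) in WT. The input ratio was 1.2 (0.772 to 1.88), so the input was not lower in PLZFon.

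The annotated gene is 8232 bp long, and its listed windows fell in 2 stretches. In the stretch at its 3′ end (chr7:102578601-102579600) all 10 windows were lower in PLZFon, with 2 to 12 counts in PLZFon and 15 to 37 in WT. This stretch had 17.2 reads in PLZFon and 64 in WT, a ratio of 0.384 (0.212 to 0.661), with 27 input reads in PLZFon and 25.5 in WT. The stretch at its 5′ end (chr7:102571101-102572000) had 10.8 reads in PLZFon and 20 in WT, a ratio of 0.765 (0.329 to 1.68), with 6 of 7 windows lower in PLZFon. The interval excludes equality in the 3′ stretch and includes it in the 5′ stretch. Olfr550 had the lowest ratio of the 77 measured loci and its stretches were set apart after that, so these intervals do not allow for the choice of an extreme value. The 3 lowest receptor windows of the clusters were all in the 3′ stretch, with 3, 4 and 8 counts in PLZFon against 21, 24 and 37 in WT, and since they share reads they are not separate observations.

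The next lowest loci were Olfr688, Olfr6, Olfr1059-ps1 and Olfr609, at ratios of 0.546 to 0.61. They had 5.75 to 9 reads in PLZFon and 15 to 22.5 in WT, and all 4 intervals include equality. The highest were Olfr557, Olfr1261, Olfr568, Olfr578 and Olfr260-ps1, at ratios of 1.63 to 1.88, with 13.5 to 25.5 reads in PLZFon and 10.2 to 21 in WT. Olfr557 had the highest ratio, 1.88 (0.772 to 4.71), from 13.5 reads in PLZFon and 10.2 in WT. All 5 intervals include equality. Of these 5, Olfr568 also had more input reads in PLZFon, 16 against 11.2 in WT.

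Among single windows with at least 20 MeDIP reads, 26 of the 2898 in the clusters passed the 2-fold rule as higher in PLZFon (0.897%) and 69 as lower (2.38%), against 1.13% higher and 2.17% lower over the whole table. With TMM factors 41 were higher and 56 lower. Receptor genes had 273 of these windows, 1 higher (0.366%) and 9 lower (3.3%). All 9 lower windows lay on chromosome 7. The 3 with the lowest ratios were in the 3′ stretch of Olfr550, where windows share reads, so the 9 are not separate observations. The higher one lay in the pseudogene Olfr1025-ps1 (chr2:85918401-85918500), with 14 counts in PLZFon and 7 in WT beside input counts of 9 in PLZFon and 8 in WT. The windows with the next highest ratios, in Olfr578 (15 counts in PLZFon and 9 in WT) and Olfr574 (13 in PLZFon and 8 in WT), have intervals that include equality. The shares over all windows of the clusters lay near those of the whole table in both directions, and those of receptor genes rest on few windows.

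The authors' deposited table called 0 of the 6332 cluster windows at an adjusted p below 0.05, against 0.0144% of all windows, with 232 cluster windows (3.66%) at an unadjusted p below 0.05, against 3.31% of all windows. In the authors' deposited table the lowest adjusted p of the clusters was 0.0602, for a window in Dnhd1, a dynein heavy chain domain gene of chromosome 7 that is no receptor (chr7:105695001-105695100). It had 0 counts in PLZFon and 20 in WT, with 5 input counts in PLZFon and 16 in WT, so the input was lower in PLZFon too.

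Across the clusters, 127 of 128 bins of 100 kb had a listed window and 96 had at least 100 MeDIP reads. The ratio ran from 0.741 to 1.27 with a median of 0.95, against a median of 0.963 over the table. The interval lay above equality in 0 bins and below it in 6, against 1.36% and 6.16% of all bins. Of the 6, 5 were on chromosome 7 and 1 in the distal cluster of chromosome 2, and 4 held 0 receptor genes. The bin with Olfr550 had 216 reads in PLZFon and 385 in WT, a ratio of 0.797 (0.672 to 0.945). The share of positions listed was 0.2% to 20.2% in the 127 bins with a listed window. It was highest in a bin of chromosome 7 without receptors (chr7:105700001-105800000), where Dchs1, Ilk, Taf10 and Tpp1 lie. Of its 202 listed windows, 79 lay in Dchs1, 27 in Ilk, 19 in Tpp1 and 4 in Taf10.

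**Figure D5:**
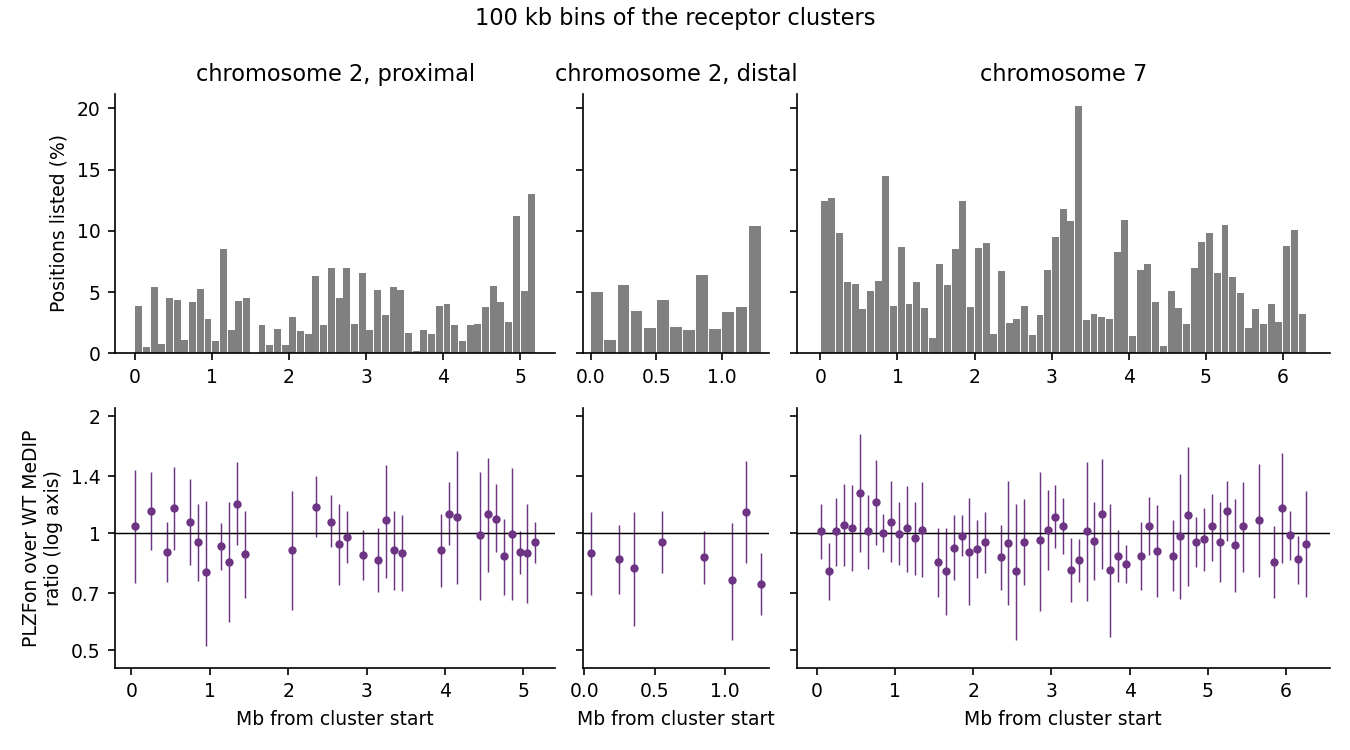
For bins of 100 kb along the 3 clusters (horizontal axis, Mb from the cluster start), the upper panels give the percentage of positions listed and the lower panels the PLZFon over WT MeDIP ratio on a log axis with exact 95% intervals, for bins of at least 100 reads. The ratios lie between 0.741 and 1.27, and the percentage listed reaches 20.2 on chromosome 7.

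Other genes inside the clusters gave a measure of the surroundings of the receptors. The beta-globin genes, which encode a chain of haemoglobin and lie among the class I receptors, had few listed positions: 1 of 6 genes (Hbb-bh1) had a listed window, and 2 of 94 positions were listed (2.13%). Hbb-bh1 had 1.75 reads in PLZFon and 3.5 in WT, too few to compare. The TRIM genes, which include Trim21, a receptor for antibodies inside the cell, had 11.9% of positions listed over 13 genes. Of these 11 were measured, with a median ratio of 0.873 (range 0.745 to 1.15) and no interval that excludes equality.

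Genes that most cells use, such as Rrm1, a subunit of ribonucleotide reductase, and Taf10, a subunit of the general transcription factor TFIID, had 14.8% of positions listed over 10 genes, although the start of Ilk, printed above, had no listed window. Their median ratio was 0.861 (range 0.682 to 1.18), with 0 of 10 intervals excluding equality. Rrm1 had 56 reads in PLZFon and 92.2 in WT beside input reads of 74.8 in PLZFon and 89.2 in WT. Gvin1, an interferon-inducible giant GTPase, had 122 reads in PLZFon and 206 in WT, a ratio of 0.847 (0.671 to 1.06). No member of these 4 lists with at least 20 reads had an interval that excludes equality.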

How the data were processed

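The members and gene lists were chosen with earlier results of these data known. The labels' protocols give tetramer-sorted NKT thymocytes, proteinase K digestion and sonication. BWA, edgeR and mm10 are named in the submitters' processing notes, without versions. The alignments had been sorted and filtered for unique reads, per the file headers. For windows of 100 bp, the deposited table gives raw read counts, RPKM values that the authors computed from them, the CpG factor (a score equal to the number of CpGs in windows checked) and the authors' log2 fold changes, p-values and adjusted p-values. It ends on chromosome 7 at 139972600, and what lies beyond was not analysed here.

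The total of each library was recovered as counts over RPKM, and these totals were the main scaling. Genes were RefSeq (GRCm38.p6). Window counts were divided by 4 to give reads. The PLZFon share over the WT share is the ratio, with exact 95% intervals. No test of genotype was made, since there was 1 library per group. The named receptors were the 5 highest and lowest ratios and WT MeDIP over input, and loci past the 2-fold rule. Single windows were named by ratio in Olfr1025-ps1, Olfr578, Olfr574 and Olfr550. By CpG number they were named in Olfr1280, Olfr268-ps1, Olfr548-ps1, Olfr580-ps1 and Olfr606. The window in Dnhd1 was named by its adjusted p in the authors' deposited table. Others named, such as Lpcat4, Olfr575, Olfr638 and genes with at least 80% of positions listed, were chosen after their values were seen. The 2-fold rule was tested on simulated counts with known differences larger than 2-fold. These counts were drawn independently for runs of listed windows, so the test does not cover single windows, which share reads. Python 3.11.15, numpy 2.4.6, pandas 2.3.3, scipy 1.17.1 and, for TMM factors, edgeR 4.0.16 were used. The alternatives were other scalings, read minimums, ratios, flanks, receptor sets and input filters.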

Additional observations from a re-analysis of the deposited data

How the results depend on the processing

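Of 105 alternative values, 70 kept within the main interval or within 1.5 times the main count and 35 moved. A reversal was looked for only in PLZFon over WT ratios whose main interval excluded equality, and 0 of these reversed. For the other values, a change of order between groups was not counted. TMM factors, scaling by listed windows and scaling within CpG factor classes moved the PLZFon over WT ratio to 1, 1 and 1.01 in the proximal cluster of chromosome 2, to 0.983, 0.984 and 0.986 on chromosome 7 and to 0.993, 0.994 and 0.999 between genes, all with intervals that include equality. Windows with at least 20 MeDIP reads gave MeDIP over input of 6.44 in PLZFon and 6.49 in WT for receptor genes, 5.71 in PLZFon and 6.49 in WT for other genes and 6.41 in PLZFon and 6.78 in WT between genes, so the order of receptor genes and sequence between them in PLZFon turned. That read minimum gave CpG factors of at least 3 in 42.5% of receptor windows and 51.7% between genes, and 2.73% (receptor genes), 4.02% (other genes), 1.88% (between), 11% (class I bodies) and 1.46% (class II bodies) of positions listed. Standardised to the CpG factors of the table, MeDIP over input between genes was 4.6 in PLZFon and 4.73 in WT. With a flank of 1000 bp, 4.02% of positions in receptor genes with their flanks and 4.2% between genes were listed. This share mixes bodies with flanks, so it does not show whether the bodies alone had an excess. Receptor genes up to 1500 bp, chosen after seeing the data, had 10.8%. Genes of any length had 19.7% (class I) and 3.31% (class II). Cluster windows past the 2-fold rule numbered 41 higher and 56 lower with TMM factors, 1 higher and 17 lower at 40 reads, and 5 higher and 29 lower at a ratio of 3. At an adjusted p below 0.1 the authors' deposited table called 1 window. Olfr550 stayed at 0.469 to 0.492 under all 3 alternatives run on it. No paired analysis was possible because each group had 1 library and no result came from a test, and no replicate could be left out. At this depth 492 of 569 receptor loci held under 20 MeDIP reads in listed windows and were not compared singly. The causes of these shifts were not tested.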

Other observations

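The locus of Gm39063, a long non-coding RNA gene of the chromosome 7 cluster chosen after its value was seen, had 30.2 MeDIP reads in PLZFon and 21.2 in WT beside input reads of 26.8 in PLZFon and 29.5 in WT. Its ratio was 2.03 (1.13 to 3.71), and none of the 77 measured receptor loci had a ratio as high. The interval does not allow for the choice of an extreme value. Of all 14285 measured gene loci, 0.182% passed the 2-fold rule as higher and 0.448% as lower. The locus of the neighbouring Smpd1 overlaps that of Gm39063 and had a ratio of 1.18 (0.764 to 1.81).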
